A study of Mus musculus with 18 samples.

Results

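Glycolysis and hypoxia response genes were followed in mouse bone marrow derived macrophages treated with 100 nM dexamethasone, a synthetic glucocorticoid. The 34 genes were chosen by name and function: glucose entry, glycolytic enzymes and their regulator, pyruvate and lactate handling, the alpha subunits of hypoxia inducible factor (HIF) with their prolyl hydroxylases, and other genes known to respond to low oxygen. Earlier results of these data were known when the genes were chosen, so counts set against all genes do not come from a blind choice. Of these 34, 30 had a probe set that carried their symbol alone, out of 17020 genes named that way on the array, and all 30 were among the 13190 genes tested. Gpi1, Pgam1, Eno1 and P4ha1 were not analysed here. The cells were grown from the marrow of 10 week old male C57BL/6 mice in serum with recombinant human CSF1, the growth factor that drives macrophage differentiation, and were replated before treatment. Cells exposed to dexamethasone for 1, 2, 4, 10 or 24 h were each compared with baseline cells, which had no dexamethasone, and each of the 6 groups had 3 arrays, described by the submitters as biological replicates. All 5 comparisons used the same 3 baseline arrays. Untreated cells kept for the later times were not analysed here, so dexamethasone and time since baseline cannot be told apart. In RNA from a whole culture, fewer cells of a type and less RNA per cell cannot be told apart either.

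Glycolysis splits glucose to pyruvate in the cytosol and yields energy without oxygen. Pyruvate then enters the mitochondrion through pyruvate dehydrogenase, or is reduced to lactate and exported. When oxygen is plentiful, prolyl hydroxylases mark HIF alpha subunits for destruction. When it is scarce, the subunits persist, pair with Arnt and raise transcription of glucose transporters, most glycolytic enzymes, Pdk1 and Vegfa. Macrophages activated by bacterial products also raise this programme, through Hif1a.

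Most members that passed a test were lower in dexamethasone treated cells, at 10 or 24 h. At 24 h, 9 members were lower than baseline (Pfkp, Aldoa, Aldoc, Tpi1, Pkm, Ldha, Pdk1, Hif1a and Vegfa) and 1, Ndrg1, was higher (limma, Benjamini-Hochberg adjusted over all genes tested, threshold 0.05). Over all genes tested, 5.34% were lower and 7.38% higher at that time. The median change of the members at 24 h was -0.15 on the log2 scale, against 0.01 for all genes tested, and 22 of 30 members lay below 0, against 47.3% of all genes. At 10 h, 9 members were lower and 1 higher, against 6.16% and 8.29% of all genes. The 9 lower at 10 h were Slc2a1, Hk2, Pfkp, Tpi1, Ldha, Slc16a3, Hif1a, Vegfa and Higd1a. Pfkp, Tpi1, Ldha, Hif1a and Vegfa were thus lower at both times, and Ndrg1 was higher at both. The count of higher members at 24 h was 0 without baseline replicate 1 or 24 h replicate 3, and 2 without baseline replicate 2, 1 h replicate 3, 2 h replicate 3, 10 h replicate 1 or 10 h replicate 3. The count of lower members at 10 h was 5 without baseline replicate 2 or without 10 h replicate 3.

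Fewer members passed at the earlier times. At 4 h, Hk1, Ankrd37 and Ndrg1 were higher and Hif1a was lower, so 3 of 30 were higher and 1 lower, against 4.5% and 3.03% of all genes. Only 1 was higher without baseline replicate 2 or 4 h replicate 2, and none was lower without baseline replicate 3, 4 h replicate 1 or 4 h replicate 2. No member passed limma's test at 1 h, when 0.303% of all genes were higher and 0.0834% lower. At that time 1 member was higher and 0 were lower at an unadjusted p under 0.05. No member passed at 2 h either, when 1.57% of all genes were higher and 0.576% lower; 2 members were higher and 2 lower at an unadjusted p under 0.05. Across all times together, limma's F test called 12 of 30 members, against 17.4% of all genes. In all, 16 of 30 members passed at 1 time or more, against 20.5% of all genes, and the other 14 passed neither there nor in the F test.

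**Figure D1:**
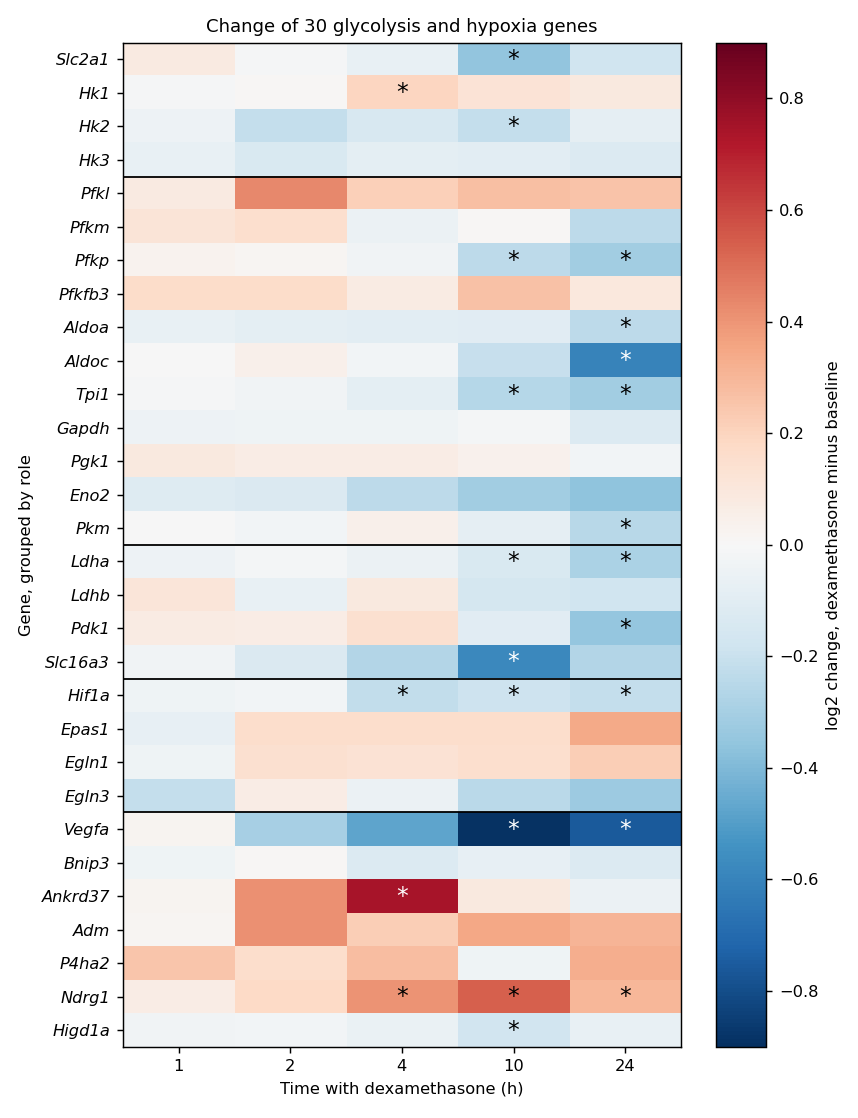
Log2 change from baseline of the 30 members (rows, grouped by role) after 1, 2, 4, 10 and 24 h of dexamethasone (columns), with colour for the change and a star where limma's adjusted p was under 0.05. Stars for lower members number 9 at 10 h, spread over all 5 roles, and 9 at 24 h, of which 7 are in the glycolysis and the pyruvate and lactate rows, and Ndrg1 is higher from 4 h on.

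The arrays were closely alike, with Pearson r between 0.9952 and 0.9972 across genes within groups. All 8 macrophage markers examined were above background on all arrays, with a summed level of 14.45 to 14.47 log2 at 24 h, against 14.36 to 14.41 at baseline. Among them Mertk averaged 9.58 at 24 h, against 7.47 at baseline, and Itgam 10.42, against 9.87, both higher, while Fcgr1 was lower at 8.89, against 9.20. The summed level of 6 neutrophil and precursor markers was 9.11 to 9.41 log2 at 24 h, against 9.40 to 10.11 at baseline, and 2 of them were lower at each of the times 10 and 24 h: S100a9 and Camp at 10 h, and S100a9 and Ngp at 24 h. S100a9 averaged 7.12 at 24 h, against 8.30 at baseline. Defining markers of fibroblasts (4 of 4) and dendritic cells (3 of 3) averaged below background, as did 3 of 4 for T cells and 2 of 3 for B cells. The others were Cd3e, with a mean of 4.63, and Cd79b, with 5.17 at 24 h, against 5.51 at baseline, and neither passed. Flt3, a dendritic cell marker, passed as higher at 10 h by 0.36, at a mean of 3.72, under the mean background of 3.87. Camp averaged 3.67 at 10 h, also under that background. The macrophage marker Spi1 passed as lower at 4 h, by a change of -0.27. Of 2 erythroid markers, Alas2 averaged below background, and Klf1 averaged 4.08 and did not pass. Of 3 proliferation markers, Mcm2 was lower at 4 and 10 h, by changes of -0.37 and -0.41, and Mki67 and Top2a passed at no time. The difference between the 3′ and 5′ Gapdh control probe sets, a measure of RNA integrity, was 0.20 ± 0.03 log2 at 24 h and 0.20 ± 0.09 at 10 h, against 0.06 ± 0.03 at baseline (SD, n = 3 each). At the earlier times it was 0.165 ± 0.024 at 1 h, 0.148 ± 0.077 at 2 h and 0.19 ± 0.021 at 4 h. The part of the macrophage, neutrophil and proliferation markers and of this RNA measure in the lower glycolysis signals was not tested.

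The deposited normalisation removes shifts shared by most probe sets. When each array was instead centred on its median over the genes tested (6.52 to 6.54 log2 at 24 h, against 6.32 to 6.51 at baseline), the median change of all genes at 24 h moved to -0.11, and 496 genes were higher and 1912 lower, against 973 higher and 705 lower with the deposited scale. Under that centring 16 members were lower and 0 higher at 24 h, and 13 lower and 1 higher at 10 h, where 576 genes were higher and 2050 lower in all, against 1093 and 812 with the deposited scale. At 4 h it gave 2 members higher and 4 lower, with 363 genes higher and 879 lower, against 593 and 399. The members' median minus that of all genes was -0.16 at 24 h and -0.11 at 10 h, differences that centring leaves as they are by construction.

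Promoters are shown for the 2 members with the largest passing rise and the 2 with the largest passing fall among those held in the RefSeq table for GRCm38.p6, because the hypoxia response element that HIF binds lies in many promoters of this programme. Each sequence is the 250 bases before the gene's first listed transcription start, 5′ to 3′ on its strand. Capitals mark the core of the element, ACGTG or GCGTG on either strand.
Ankrd37, chr8:45999851-46000100, minus strand: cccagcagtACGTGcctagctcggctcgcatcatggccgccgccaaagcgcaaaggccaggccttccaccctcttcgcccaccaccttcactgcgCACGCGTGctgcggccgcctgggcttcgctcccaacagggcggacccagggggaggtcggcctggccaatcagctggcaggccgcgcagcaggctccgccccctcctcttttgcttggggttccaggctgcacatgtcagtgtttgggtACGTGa
Hk1, chr10:62379909-62380158, minus strand: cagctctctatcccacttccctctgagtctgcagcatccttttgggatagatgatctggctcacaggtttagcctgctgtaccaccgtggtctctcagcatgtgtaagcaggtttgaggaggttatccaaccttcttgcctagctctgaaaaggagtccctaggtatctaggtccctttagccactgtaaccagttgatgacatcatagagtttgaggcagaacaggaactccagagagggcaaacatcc
Vegfa, chr17:46032378-46032627, minus strand: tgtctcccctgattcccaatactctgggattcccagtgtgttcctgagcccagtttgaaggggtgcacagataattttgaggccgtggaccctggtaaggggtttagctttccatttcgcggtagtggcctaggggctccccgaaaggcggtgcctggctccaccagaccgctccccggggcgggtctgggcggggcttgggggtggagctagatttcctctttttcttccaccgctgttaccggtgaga
Aldoc, chr11:78322823-78323072, plus strand: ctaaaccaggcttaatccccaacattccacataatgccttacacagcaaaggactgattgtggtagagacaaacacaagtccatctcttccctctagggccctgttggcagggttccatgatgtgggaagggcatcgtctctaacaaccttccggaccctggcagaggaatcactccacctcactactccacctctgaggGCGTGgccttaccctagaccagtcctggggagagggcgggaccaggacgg

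The Ankrd37 window held 4 cores, beginning at -241, -155, -152 and -6 from the start, of which the middle pair overlap. The Aldoc window held 1, at -50, and those of Hk1 and Vegfa held 0. Only the first listed start of each gene was searched, and Aldoc, Hk1 and Vegfa have 2 each, so their other promoters were not examined. Over the 28 members in the table, 22 windows (78.6%) held a core, against 53.5% of 10621 tested genes and 38.6% of all 27025 genes there. The windows of members had a median GC content of 62.8%, against 59.2% for tested genes and 52.0% for all. Among the 13 held members that never passed it was 56.8%, and 92.3% of them held a core. A core was present in the searched window of 5 of the 9 members lower at 24 h. The hexamer AGAACA, part of the element bound by the glucocorticoid receptor, was searched on both strands and lay in 4 of 28 member windows (14.3%), against 11.5% of tested genes and 16.2% of all, and the Hk1 window held 1. ACGTG also lies inside CACGTG, the E-box bound by other factors, and a match of letters is not a bound site.

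Glucose entry and phosphorylation, with 4 members, had 3 that passed at some time, against 20.5% of all genes, and none that passed at 24 h. Slc2a1 encodes GLUT1, the main basal glucose transporter, and by its brightest probe set it was lowest at 10 h. Its log2 intensities were 9.18, 9.27 and 9.15 at baseline, 9.25, 9.30 and 9.30 at 1 h, 9.04, 9.24 and 9.30 at 2 h, 9.01, 9.28 and 9.12 at 4 h, 8.57, 9.11 and 8.84 at 10 h, and 8.93, 9.13 and 9.0 at 24 h. The 3 arrays at 10 h lay below all 3 baseline arrays, and so did those at 24 h. Slc2a1 fell by 0.36 ± 0.10 (SE, adjusted p = 0.0115) at 10 h, and at 24 h its change was -0.18 (95% interval -0.38 to 0.02, adjusted p = 0.255). The 10 h call was lost without 10 h replicate 1 or without baseline replicate 2 (highest adjusted p = 0.103, lowest 0.000177 over all settings tried). A second Slc2a1 probe set, with a mean signal of 7.35, changed by -0.299 at 10 h and -0.297 at 24 h. All its arrays lay below baseline at both times, so it had no recovery at 24 h.

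The hexokinases trap glucose in the cell as glucose 6-phosphate, and Hk1 and Hk2 passed at different times and in opposite directions. Hk1, the widely expressed isoform, had 9.32, 9.23 and 9.40 at baseline, 9.35, 9.25 and 9.32 at 1 h, 9.30, 9.30 and 9.37 at 2 h, 9.45, 9.49 and 9.59 at 4 h, 9.36, 9.43 and 9.53 at 10 h, and 9.40, 9.38 and 9.43 at 24 h. Its 4 h arrays lay above all baseline arrays, and the rise was 0.19 ± 0.06 (adjusted p = 0.0383), kept in 2 of 8 other processing settings and in 14 of 18 fits without 1 array (adjusted p = 0.00903 to 0.754). Hk2, the inducible isoform and a well known HIF target, had 9.14, 9.13 and 9.03 at baseline, 9.04, 9.13 and 9.0 at 1 h, 8.91, 8.97 and 8.77 at 2 h, 8.89, 9.09 and 8.89 at 4 h, 8.92, 8.97 and 8.77 at 10 h, and 9.03, 9.03 and 9.0 at 24 h. Its arrays lay below baseline at 2 and at 10 h and overlapped it at 1, 4 and 24 h. The fall at 10 h was 0.21 ± 0.07 (adjusted p = 0.0398), while the 2 h value of -0.21 had an adjusted p of 0.152. The 10 h call was kept in 4 of 8 processing settings and 14 of 18 fits without 1 array (adjusted p = 0.00151 to 0.202). Hk3, an isoform abundant in myeloid cells, changed by -0.12 at 24 h (interval -0.24 to -0.003, adjusted p = 0.189) and did not pass.

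Of 11 measured glycolytic enzymes and their regulator, 5 were lower and 0 higher at 24 h, against 5.34% and 7.38% of all genes. In pathway order the 5 were Pfkp, Aldoa and Aldoc, Tpi1 and Pkm. They covered phosphofructokinase, aldolase, triose phosphate isomerase and pyruvate kinase, while Gapdh and Pgk1, which act between the last pair, did not pass.

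Phosphofructokinase commits glucose to glycolysis, and its 3 isoforms differed in whether they passed. Pfkp, the platelet type isoform, had 9.88, 9.72 and 9.88 at baseline, 9.91, 9.75 and 9.90 at 1 h, 9.88, 9.74 and 9.90 at 2 h, 9.77, 9.77 and 9.83 at 4 h, 9.63, 9.53 and 9.60 at 10 h, and 9.53, 9.45 and 9.55 at 24 h. All arrays at 10 and 24 h lay below all baseline arrays. Pfkp fell by 0.24 ± 0.06 at 10 h (adjusted p = 0.00657) and by 0.31 ± 0.06 at 24 h (adjusted p = 0.000464). On the linear scale its intensity fell by 15.2% at 10 h and fell by 19.6% at 24 h. Both calls were lost when all probe sets of the gene were averaged, with a highest adjusted p of 0.127 at 10 h and 0.184 at 24 h and a lowest of 0.000262 and 4.78e-06. Its second probe set had a mean signal of 3.91, against a mean background of 3.87. Pfkl, the liver type isoform, changed by 0.26 at 24 h (interval -0.07 to 0.59), Pfkm, the muscle type, by -0.24 (interval -0.58 to 0.10), and Pfkfb3, whose product makes the activator fructose 2,6-bisphosphate, by 0.10 (interval -0.17 to 0.36). By these brightest probe sets, the interval of Pfkm included the -0.31 of Pfkp, and those of Pfkl and Pfkfb3 did not. The Pfkl probe sets disagreed, however. Its dimmer ones, with mean signals of 4.6 and 4.26, changed by 0.148 and -0.315 at 24 h. Arrays of the former overlapped baseline, and those of the latter all lay below it.

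Aldolase cleaves the phosphorylated hexose into triose phosphates, and both measured isoforms were lower at 24 h and passed at no other time. Aldoc, the brain type isoform, had 9.41, 9.25 and 9.60 at baseline, 9.40, 9.25 and 9.61 at 1 h, 9.46, 9.32 and 9.63 at 2 h, 9.39, 9.24 and 9.56 at 4 h, 9.18, 9.06 and 9.40 at 10 h, and 8.78, 8.66 and 9.02 at 24 h. Every array at 24 h was below every baseline array, while those at 1 to 10 h overlapped baseline. In every group replicate 2 read lowest and replicate 3 highest, a spread that the fit did not remove. Each 10 h array read below the baseline array of its own number, so the overlap does not show that Aldoc was unchanged at 10 h. The labels do not tie these numbers to animals. Aldoc fell by 0.60 ± 0.11 at 24 h (adjusted p = 0.000318), so its linear intensity fell by 34.2%. The 10 h change of -0.21 did not pass (adjusted p = 0.241). A second Aldoc probe set changed by -0.60 at 24 h, with all its arrays below baseline. Aldoa, the isoform of muscle and most other tissues, had 11.79, 12.01 and 11.93 at baseline, 11.83, 11.83 and 11.86 at 1 h, 11.79, 11.83 and 11.85 at 2 h, 11.76, 11.82 and 11.86 at 4 h, 11.91, 11.69 and 11.82 at 10 h, and 11.72, 11.70 and 11.60 at 24 h. Its 24 h arrays were all below baseline, and the fall was 0.24 ± 0.05 (adjusted p = 0.00271). Changes of -0.24, -0.26 and -0.17 at 24 h were read from its 3 other probe sets, again with all arrays below baseline. All 4 Aldoa probe sets are of the x type, as are the brightest one of Ldhb and the dimmer ones of Tpi1 and Pgk1. Those of Gapdh and Ndrg1 are of the s type, as is a dimmer one of Higd1a. Probes of both types may also match other transcripts.

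Tpi1 interconverts the triose phosphates and had the smallest adjusted p of all members. Its intensities were 11.86, 11.87 and 11.82 at baseline, 11.85, 11.83 and 11.84 at 1 h, 11.82, 11.80 and 11.85 at 2 h, 11.80, 11.79 and 11.71 at 4 h, 11.64, 11.56 and 11.57 at 10 h, and 11.53, 11.55 and 11.53 at 24 h. The arrays at 4, 10 and 24 h all lay below the baseline arrays. Tpi1 fell by 0.26 ± 0.04 at 10 h (adjusted p = 1.25e-05) and by 0.31 ± 0.04 at 24 h (adjusted p = 7.18e-07). Its linear intensity fell by 19.5% at 24 h. A second probe set changed by -0.23 at 24 h. Pkm, pyruvate kinase of muscle and immune cells, makes the pyruvate and had 11.12, 11.06 and 11.11 at baseline, 11.14, 11.09 and 11.05 at 1 h, 11.06, 11.08 and 11.07 at 2 h, 11.14, 11.16 and 11.13 at 4 h, 10.98, 11.01 and 11.06 at 10 h, and 10.84, 10.92 and 10.79 at 24 h. It passed at 24 h and at no other time, with all 3 arrays below baseline, and fell by 0.25 ± 0.04 (adjusted p = 0.000137). The array values do not tell the M1 and M2 splice forms apart.

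The remaining enzymes of the pathway did not pass. Gapdh, which oxidises the triose phosphate and makes NADH, had 12.45, 12.45 and 12.42 at 24 h, against 12.54, 12.58 and 12.58 at baseline. Its groups did not overlap, and the change of -0.13 (interval -0.22 to -0.04) had an adjusted p of 0.0534. The array's separate Gapdh control probe sets changed by -0.06 at the 3′ end, -0.15 in the middle and -0.20 at the 5′ end at 24 h. Pgk1, which makes the pathway's first ATP, had 12.34, 12.28 and 12.32 at 24 h, against 12.36, 12.34 and 12.32 at baseline. The groups overlapped, and the change of -0.03 (interval -0.10 to 0.05, adjusted p = 0.693) has an interval that does not reach the -0.31 of Tpi1. Eno2, the neuronal enolase, changed by -0.36 at 24 h (interval -0.78 to 0.06) near background.

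**Figure D2:**
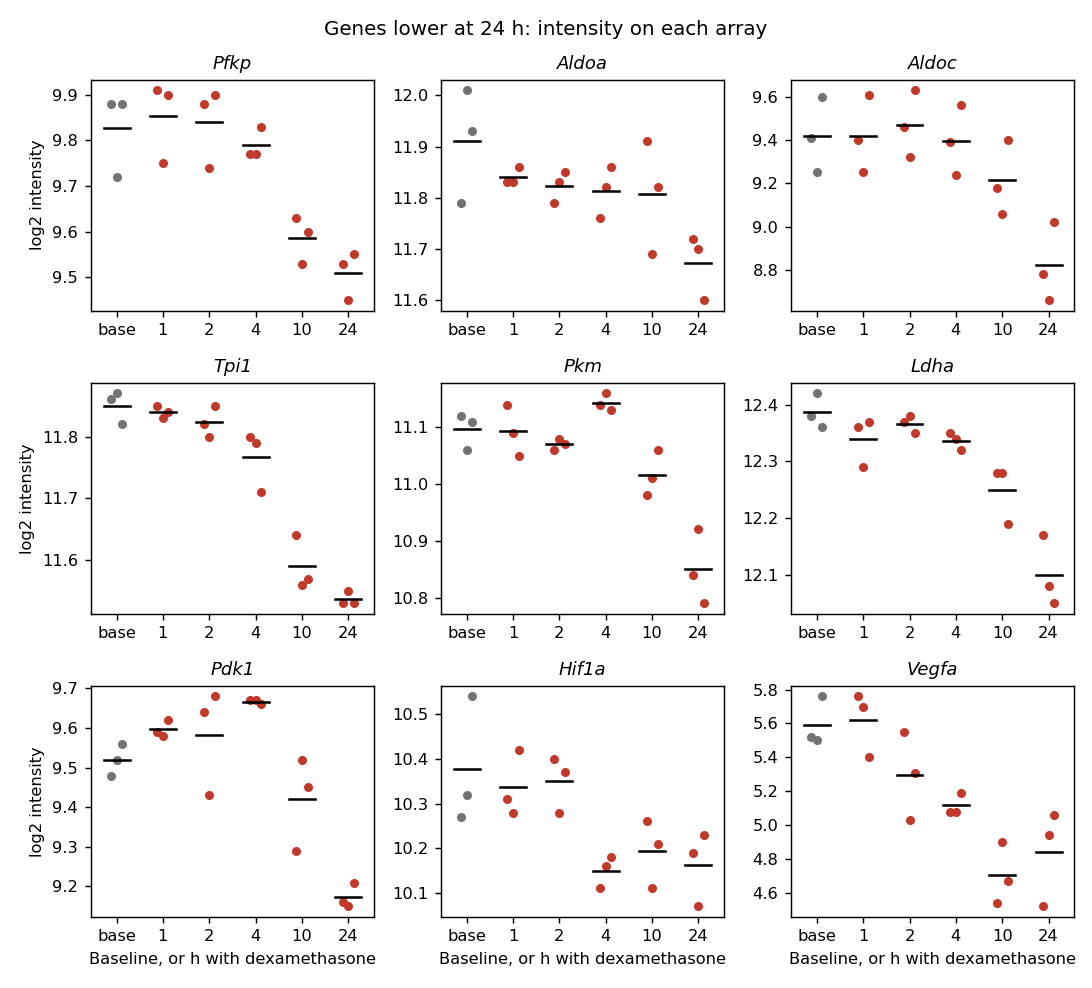
Log2 intensity on each array of the 9 members lower at 24 h, by group from baseline to 24 h, with points for the 3 arrays of a group and a short bar at each group mean. At 24 h every point lies below every baseline point of its gene, and Aldoc and Vegfa have the largest falls, 0.60 and 0.75.

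Pyruvate and lactate handling had 4 measured members, of which Ldha and Pdk1 were lower at 24 h and Ldha and Slc16a3 at 10 h. Over all genes, 5.34% were lower at 24 h and 6.16% at 10 h. Ldha, the lactate dehydrogenase subunit that favours lactate, had 12.38, 12.42 and 12.36 at baseline, 12.36, 12.29 and 12.37 at 1 h, 12.37, 12.38 and 12.35 at 2 h, 12.35, 12.34 and 12.32 at 4 h, 12.28, 12.28 and 12.19 at 10 h, and 12.17, 12.08 and 12.05 at 24 h. Its arrays were below baseline at 4, 10 and 24 h. Ldha fell by 0.14 ± 0.04 at 10 h (adjusted p = 0.0143) and by 0.29 ± 0.04 at 24 h (adjusted p = 4.96e-06). The 10 h call was kept in 6 of 8 processing settings and was lost without baseline replicate 2 or 10 h replicate 3 (adjusted p = 0.0019 to 0.107), and the 24 h call was kept throughout. Ldhb, the subunit that favours pyruvate, changed by -0.18 at 24 h (interval -0.45 to 0.09).

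Pdk1, the kinase that shuts pyruvate dehydrogenase and so keeps pyruvate out of the mitochondrion, had 9.48, 9.52 and 9.56 at baseline, 9.59, 9.58 and 9.62 at 1 h, 9.64, 9.43 and 9.68 at 2 h, 9.67, 9.67 and 9.66 at 4 h, 9.29, 9.52 and 9.45 at 10 h, and 9.16, 9.15 and 9.21 at 24 h. The arrays were above baseline at 1 and 4 h and below it at 24 h. The 4 h value of 0.15 did not pass (adjusted p = 0.192), and the fall at 24 h was 0.35 ± 0.06 (adjusted p = 0.000244). Both other Pdk1 probe sets lay below baseline at 24 h, by changes of -0.34 and -0.26. At 10 h, however, they read 0.02 and 0.21 above baseline, the last with all arrays above, against -0.10 for the first probe set. Slc16a3 encodes MCT4, which exports lactate, and had 4.43, 4.54 and 4.24 at baseline, 4.33, 4.59 and 4.21 at 1 h, 4.09, 4.35 and 4.38 at 2 h, 4.15, 4.44 and 3.82 at 4 h, 3.82, 3.96 and 3.70 at 10 h, and 4.16, 4.28 and 3.98 at 24 h. None of its 10 h arrays was above that array's background, while all 3 baseline arrays were, so the change at 10 h is a bound: the signal was at least 1.38-fold higher at baseline, from a measured mean of 3.83 at 10 h, against 4.40 at baseline (adjusted p = 0.0135). That call was lost without baseline replicate 2 or 10 h replicate 3 (adjusted p = 0.00207 to 0.0658 over all settings).

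HIF alpha subunits and their hydroxylases had 4 measured members, and 1, Hif1a, passed at some time, against 20.5% of all genes. Hif1a had 10.27, 10.32 and 10.54 at baseline, 10.31, 10.28 and 10.42 at 1 h, 10.40, 10.28 and 10.37 at 2 h, 10.11, 10.16 and 10.18 at 4 h, 10.26, 10.11 and 10.21 at 10 h, and 10.19, 10.07 and 10.23 at 24 h. All arrays at 4, 10 and 24 h lay below the lowest baseline array. Hif1a fell by 0.23 ± 0.06 at 4 h (adjusted p = 0.022), 0.18 ± 0.06 at 10 h (adjusted p = 0.0484) and 0.21 ± 0.06 at 24 h (adjusted p = 0.0213). It was the sole member lower at 4 h. The 10 h call was kept in 2 of 7 processing settings and 6 of 18 fits without 1 array (adjusted p = 0.00876 to 0.337), and the 24 h call in 4 of 7 and 16 of 18 (adjusted p = 0.00233 to 0.86). At 4 h it was kept in 5 of 7 settings and 15 of 18 fits (adjusted p = 0.00199 to 0.57). The calls at all 3 times were lost when both probe sets were averaged. With the probe set of largest variance Hif1a was not among the genes tested, so 7 settings are counted. The second probe set had a mean signal of 3.15, under the mean background of 3.87. HIF activity is set mainly through the protein, which an array does not measure.

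Epas1, which encodes HIF-2 alpha, had 6.73, 6.75 and 6.6 at 24 h, against 6.41, 6.50 and 6.15 at baseline. Its arrays did not overlap, and the change of 0.34 (interval 0.06 to 0.62) had an adjusted p of 0.115. Egln1, the main oxygen sensing prolyl hydroxylase PHD2, had 8.71, 8.74 and 8.68 at 24 h, against 8.49, 8.61 and 8.37 at baseline, a change of 0.22 (interval 0.07 to 0.38) with an adjusted p of 0.0506. Both had all 3 arrays at 24 h above all 3 baseline arrays without passing in the main fit. With the replicate number as a block, both passed as higher at 24 h, though the labels do not tie these numbers to animals. Egln3, an inducible hydroxylase, changed by -0.33 (interval -0.70 to 0.05).

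Among 7 other hypoxia response genes, 4 passed at some time, in both directions, against 20.5% of all genes. Vegfa, the secreted growth factor for blood vessels, had the largest passing fall of the members, at 5.52, 5.50 and 5.76 at baseline, 5.76, 5.70 and 5.4 at 1 h, 5.55, 5.03 and 5.31 at 2 h, 5.08, 5.08 and 5.19 at 4 h, 4.54, 4.90 and 4.67 at 10 h, and 4.52, 4.94 and 5.06 at 24 h. Its arrays were below baseline at 4, 10 and 24 h. Vegfa fell by 0.89 ± 0.16 at 10 h (adjusted p = 0.000336) and by 0.75 ± 0.16 at 24 h (adjusted p = 0.00209). Its linear intensity fell by 46.1% at 10 h and fell by 40.7% at 24 h. The 4 h value of -0.48 did not pass (adjusted p = 0.084). The second Vegfa probe set had a mean signal of 4.06, near the mean background of 3.87. It changed by -0.32 at 10 h, with arrays that overlapped baseline, and by -0.28 at 24 h, with all arrays below baseline. Higd1a, a mitochondrial protein of the inner membrane known to be induced by hypoxia, had 10.29, 10.15 and 10.13 at baseline, 10.17, 10.16 and 10.14 at 1 h, 10.09, 10.24 and 10.17 at 2 h, 10.16, 10.18 and 10.06 at 4 h, 9.92, 10.09 and 10.04 at 10 h, and 10.12, 10.12 and 10.12 at 24 h. It fell by 0.18 ± 0.05 at 10 h (adjusted p = 0.0296), with all arrays below baseline, and at 24 h its change was -0.07. The 10 h call was kept in 4 of 8 processing settings and was lost without baseline replicate 1 or 10 h replicate 1 (adjusted p = 0.000589 to 0.814).

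Higher members were few. Ndrg1, a stress and hypoxia induced gene first described as repressed by N-myc, was higher from 4 h onward, at 8.77, 8.92 and 8.87 at baseline, 8.85, 8.88 and 9.03 at 1 h, 9.06, 8.91 and 9.13 at 2 h, 9.20, 9.20 and 9.37 at 4 h, 9.39, 9.25 and 9.54 at 10 h, and 9.15, 9.07 and 9.23 at 24 h. All arrays at 4, 10 and 24 h were above all baseline arrays. Ndrg1 rose by 0.41 ± 0.08 at 4 h (adjusted p = 0.000803), 0.54 ± 0.08 at 10 h (adjusted p = 1.41e-05) and 0.30 ± 0.08 at 24 h (adjusted p = 0.0104). With centred arrays the 24 h value was 0.17 with an adjusted p of 0.201. The 24 h call was also lost without baseline replicate 1 or without 24 h replicate 3, and its adjusted p ranged from 0.000392 to 0.201 over the settings tried. Ankrd37, a small ankyrin repeat protein whose gene is a direct HIF target, had 5.08, 4.56 and 4.47 at baseline, 5.17, 4.58 and 4.43 at 1 h, 5.28, 5.05 and 5.02 at 2 h, 5.50, 5.80 and 5.05 at 4 h, 5.06, 4.91 and 4.40 at 10 h, and 4.76, 4.59 and 4.59 at 24 h. It rose by 0.75 ± 0.21 at 4 h (adjusted p = 0.0288), although its lowest 4 h array, 5.05, overlapped the highest baseline array, 5.08. The call was lost without baseline replicate 2 or 3 or without 4 h replicate 1 or 2 (adjusted p = 0.00149 to 0.194 over all settings).

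The other 3 genes of that role did not pass at any time. Bnip3, which marks mitochondria for removal, changed by -0.12 at 24 h (interval -0.26 to 0.02). The hormone gene Adm changed by 0.31 (interval -0.32 to 0.93) and P4ha2, a collagen prolyl hydroxylase subunit, by 0.33 (interval -0.11 to 0.77). The last pair have intervals too wide to place them on either side of 0. Adm was also near background, above it on 16 of 18 arrays.

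**Figure D3:**
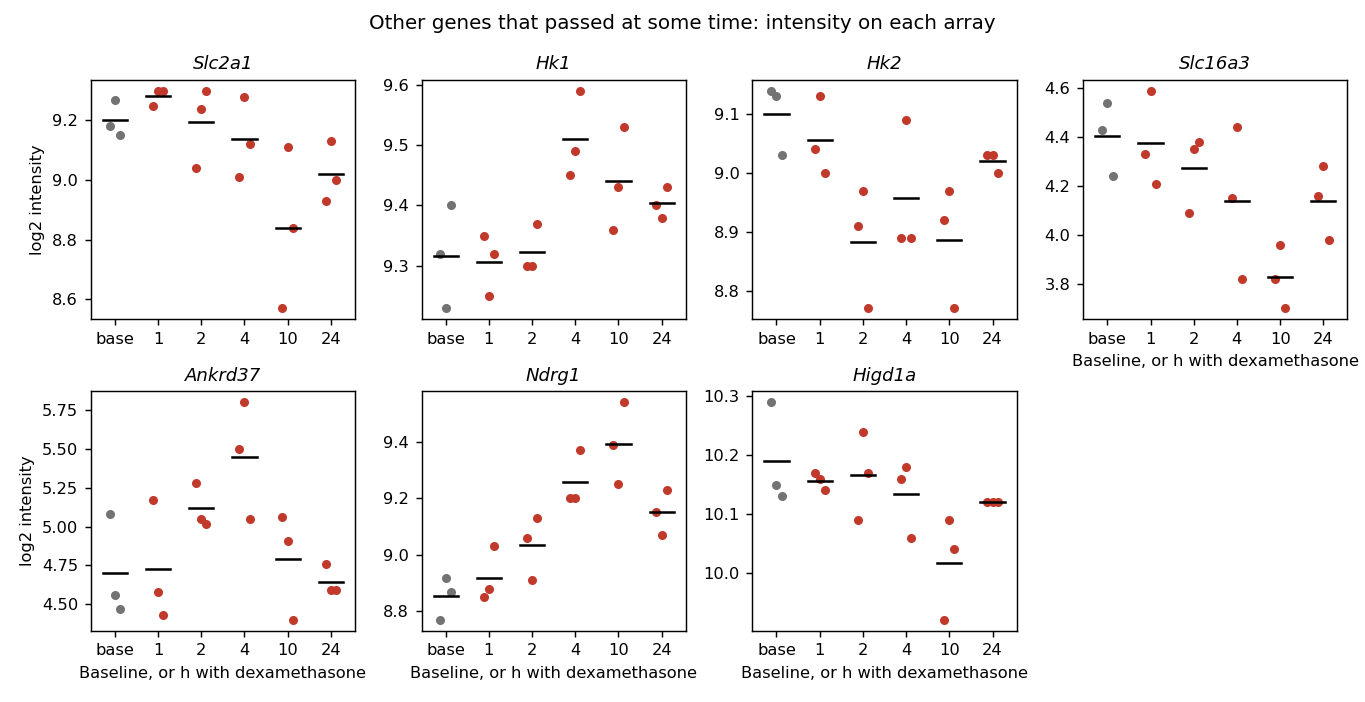
Log2 intensity on each array of the 7 members that passed at 4 or 10 h and were not lower at 24 h, by group from baseline to 24 h, with points for arrays and a short bar at each group mean. Ndrg1 stays above its baseline arrays from 4 h on, while Hk1 and Ankrd37 are highest at 4 h and Slc2a1 and Slc16a3 are lowest at 10 h.

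Steps between neighbouring times were tested from 4 h on. Between 4 and 10 h, 3 of 30 members were lower at the later time (Pfkp, Tpi1 and Pdk1), against 1.83% of all genes, and 0 were higher, against 2.35%. Between 10 and 24 h, Pkm, Ldha and Pdk1 were lower at the later time, so 3 of 30, against 1.17% of all genes, and 0 were higher, against 0.993%. No member was higher at an unadjusted p under 0.05 in either step, and 9 and 7 were lower. Tpi1 differed by -0.17 ± 0.04 between 10 and 4 h (adjusted p = 0.006) and Pdk1 by -0.25 ± 0.06 (adjusted p = 0.0212). With the mean of its probe sets the Pdk1 difference between 10 and 4 h was -0.07 (adjusted p = 0.585; lowest over all settings 0.00584). From 10 to 24 h Pdk1 differed by a further -0.25 ± 0.06 (adjusted p = 0.0317). The count for the first step was 1 without 4 h replicate 1, 4 h replicate 2 or 10 h replicate 1, and that for the second was 1 without 10 h replicate 3 or without any single 24 h replicate. In both steps 0 members were lower when only the groups compared entered the fit or when no intensity trend was used.

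**Figure D4:**
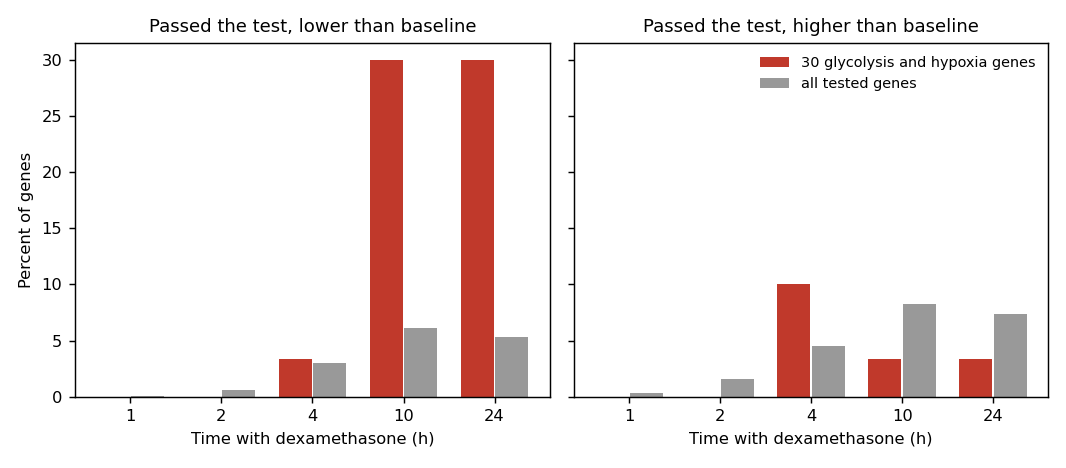
Percent of the 30 members and of the 13190 genes tested that were lower (left) or higher (right) than baseline at each time by limma's adjusted p under 0.05. Members were lower in 9 of 30 cases at 10 and at 24 h, against 6.16% and 5.34% of all genes, and higher in 1 of 30, against 8.29% and 7.38%.

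Precision depended on signal strength, and signals of different probe sets are not compared here as amounts of transcript. The 15 members with the stronger mean signal had a median SE of 0.057, and 8 of them passed at 24 h. The 15 weaker ones had a median SE of 0.158, and 2 passed. Since the members lean to strong signals, the genes with a mean signal above 9 log2 were counted apart, a level chosen after the values were seen. Of 16 members above it, 8 were lower and 1 higher at 24 h, against 11.6% and 12% of the 2619 tested genes above it, with a median change of -0.20 in the members and -0.01 in those genes. At 10 h, 6 of the 16 were lower and 1 higher, against 14.1% and 11.9%. Of 14 members at or under that level, 1 was lower and 0 higher at 24 h, against 3.80% and 6.23% of 10571 genes.

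**Figure D5:**
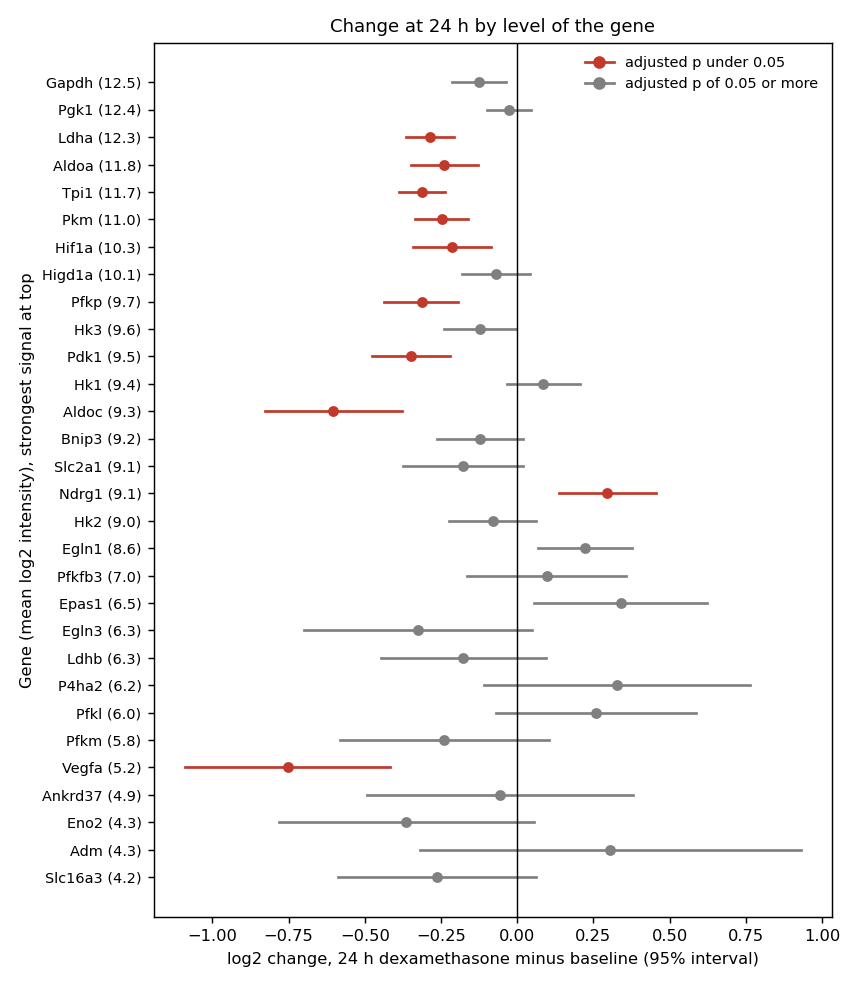
Log2 change at 24 h minus baseline of the 30 members with 95% intervals, ordered by mean signal with the strongest at the top, red where limma's adjusted p was under 0.05. Intervals widen toward the bottom, where the median SE is 0.158, against 0.057 for the upper 15, and 8 of the 10 members that passed lie in the upper 15.

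Genes of the same pathways outside the 34 were read from lists by function, also chosen with earlier results of these data known. Among other genes of glucose metabolism, 35 of 40 were tested and 6 passed at some time, against 20.5% of all genes. At 24 h 1 was higher and 2 were lower, against 7.38% and 5.34% of all genes, with a median change of 0.03, against 0.01 over all genes. Slc16a1, which encodes the lactate and pyruvate transporter MCT1, averaged 8.34 ± 0.10 at 24 h and 8.6 ± 0.04 at baseline (SD, n = 3 each), a fall of 0.26 ± 0.08 (SE, adjusted p = 0.0231), and it was also lower at 4 and 10 h. Pdp1, the phosphatase that reopens pyruvate dehydrogenase and so opposes Pdk1, averaged 7.80 ± 0.02 at 4 h and 8.36 ± 0.12 at baseline, with a change of -0.56 ± 0.08 (adjusted p = 1.09e-05). It was lower at 2, 4 and 10 h and did not pass at 24 h. Gbe1, the branching enzyme of glycogen synthesis, averaged 8.37 ± 0.17 at 10 h and 7.84 ± 0.01 at baseline (adjusted p = 0.000808). Slc2a8, a glucose transporter of internal membranes, differed by 0.30 at 10 h (adjusted p = 0.0366). In the pentose phosphate pathway, which makes NADPH and ribose, 5 of 7 genes were tested and 2 passed at some time, against 20.5% of all genes. Pgd was lower at 10 and 24 h, with a change of -0.14 ± 0.04 at 24 h (adjusted p = 0.00931), and Rpia was lower at 4 h by a change of -0.33 ± 0.09 (adjusted p = 0.0145).

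Other components of the HIF pathway had 11 of 12 genes tested, and 4 passed at some time, against 20.5% of all genes. Arnt, the partner of the HIF alpha subunits, averaged 7.33 ± 0.07 at 24 h and 6.79 ± 0.22 at baseline, a rise of 0.54 ± 0.11 (adjusted p = 0.000936), and it was also higher at 4 and 10 h. Cited2, which competes with HIF for its coactivators, was higher by 0.57 ± 0.08 at 1 h (adjusted p = 7.41e-05), 0.46 at 2 h and 0.43 at 4 h. Egln2, the prolyl hydroxylase PHD1, was higher by 0.28 at 4 h (adjusted p = 0.0149) and 0.22 at 10 h (adjusted p = 0.0396). Cul2, the scaffold of the VHL ubiquitin ligase, differed by -0.18 at 24 h (adjusted p = 0.0367).

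Other hypoxia response genes outside the 34 had 31 of 35 tested, and 12 passed at some time, against 20.5% of all genes. At 24 h 4 were higher and 4 lower, against 7.38% and 5.34% of all genes, with a median change of 0.04. Ddit4, an inhibitor of mTOR signalling induced by both hypoxia and glucocorticoids, averaged 8.79 ± 0.21 at 4 h and 4.81 ± 0.52 at baseline, a rise of 3.98 ± 0.19 (adjusted p = 6.98e-14). Ier3, an early response gene, was lower by a change of -0.95 at 1 and at 2 h and -0.79 at 4 h, and did not pass at 10 or 24 h. Lox, which crosslinks collagen, was higher at 24 h by 0.94 ± 0.16 (adjusted p = 0.000149). Tgm2, a protein crosslinking enzyme, was lower by a change of -0.84 at 10 h and -0.39 at 24 h.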

How the data were processed

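Total RNA of 18 cultures was hybridised to Affymetrix mouse arrays, 1 per culture. The deposited values are linear intensities between 5.37 and 15224 for 45141 probe sets; RMA with the affy package made them, per the submitters' processing notes, and no version or genome build is given in the sources used here. Their log2 was taken here, and all levels and changes are on that scale. An evenly stepped run of 211 probe sets in baseline replicate 1, which held no member, was left out. Genes were named by the platform annotation, where 28898 probe sets had 1 symbol, 551 several and 15588 none, and the probe set with the highest mean stood for a gene. Genes that reached the array's 40th percentile on at least 3 arrays were tested. limma 3.58.1 (R 4.3.3) fitted 1 mean per group over all 18 arrays, with an intensity trend and Benjamini-Hochberg adjustment per comparison at a threshold of 0.05. A trial of this fit on simulated data used independent noise for each array. It therefore does not show how deviations shared by same-numbered arrays affect the fit. Background was the 95th percentile of 40 control probe sets on each array. The number of arrays limits the precision. The members and lists were chosen with earlier results of these data known. Members that passed at any time or in the F test got values on every array, the others means, intervals or counts. Other lists got up to 4 passing genes each. The promoters were those of the 2 largest passing rises and falls among members held in the promoter table. Ndrg1, which rose more than Hk1, was not held there under that symbol. The labels do not say whether arrays with the same replicate number share an animal, so no block was used, and p-values measure the spread between these cultures. Other settings changed the probe set per gene, the filter, the trend, the arrays fitted, the centring, the stepped values and the replicate block, and left out each array in turn.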

Additional observations from a re-analysis of the deposited data

Results flagged for a closer look

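The change from baseline differed between neighbouring times for 5 members, by limma's test of the later time against the earlier one. Pfkp was lower at 10 h than at 4 h (-0.21), as were Tpi1 (-0.17) and Pdk1 (-0.25). Pkm was lower at 24 h than at 10 h (-0.17), as were Ldha (-0.15) and Pdk1 again (-0.25). In each of these the 3 arrays of the later time lay below all 3 of the earlier one. With the mean of all its probe sets, Pdk1 differed by -0.07 between 10 and 4 h (adjusted p = 0.585). Tpi1 was kept in 18 of 18 fits without 1 array, and Pfkp in 3 of 18.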

How the results depend on the processing

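With 3 arrays a group, small changes of weak probe sets cannot be resolved. Aldoa, Aldoc, Tpi1, Pkm, Ldha, Pdk1 and Vegfa passed at 24 h in all 8 processing settings and all 18 fits without 1 array, and no member's direction reversed where it had passed. The counts of passing members were less stable, and the causes were not tested. Centred arrays gave 1 lower at 2 h (0 as reported), 4 lower at 4 h (1 as reported), 16 lower and 0 higher at 24 h (9 and 1 as reported), and 0 lower from 10 to 24 h (3 as reported). Without the intensity trend, 1 was higher and 0 lower at 4 h, 5 were lower at 10 h and 0 in each step. With only the groups compared in the fit, 5 were lower at 10 h and 0 in each step. The largest-variance probe set gave 0 lower at 4 h, where Hif1a, the member lower in the main fit, was not among the genes tested. The mean of probe sets gave 1 lower from 4 to 10 h. With the replicate number as a block, 1 was lower at 2 h, 3 higher at 24 h (Ndrg1, Egln1 with adjusted p = 0.0143 and Epas1 with 0.0371), 6 lower from 4 to 10 h and 5 lower from 10 to 24 h. Over all genes that fit gave 128 lower at 2 h, 1271 higher and 979 lower at 24 h, 436 lower from 4 to 10 h and 264 lower from 10 to 24 h. Same-numbered arrays had a median correlation of deviations from the group means of 0.155 (0.0236 to 0.29, 35 of 45 above 0.1). For arrays of different groups and numbers the median was -0.0794, a value tied to the first because deviations within a group cancel out. All 18 arrays were closest to their own number. The data thus hint that arrays of the same number belong together, which the labels do not state and the main fit did not include. Leaving out 1 array gave 1 to 3 higher and 0 to 1 lower at 4 h, 5 to 9 lower at 10 h, 0 to 2 higher and 8 to 10 lower at 24 h, 1 to 3 lower from 4 to 10 h, 1 to 4 lower from 10 to 24 h, and 10 to 13 by the F test.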
